A study of Mus musculus with 8 samples.

Results

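The let-7 miRNAs other than let-7e were followed in the livers of mice given carbon tetrachloride (CCL4), a liver toxin that produces fibrosis. The 7 members were let-7a, let-7b, let-7c, let-7d, let-7f, let-7g and let-7i, taken by exact name from the 567 mouse miRNAs on the array, a rule that uses no measured value. let-7e, which carries the same seed, was kept apart. Total RNA, 100 ng per array, had been hybridised to 8 single-colour Agilent miRNA arrays. The mice were male C57BL/6J, 8 weeks old at the start, with no genetic change named. CCL4 at 10% in olive oil had been injected into the peritoneum at 0.02 ml per g of body weight, with 1 array at 4 weeks, 2 at 6 weeks and 2 at 8 weeks. Olive oil alone had been injected on the same schedule, with 1 array each at 4, 6 and 8 weeks. Injections were more frequent in the first 4 weeks than afterwards. Whether an array held RNA of 1 mouse or of a pool was not stated in the labels, so n counts arrays and p-values measure only the spread between these arrays. This was whole liver, in which fewer cells of a type and less RNA per cell cannot be told apart.

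let-7 was among the earliest miRNA families to be described and is conserved across animals. The mature RNAs share a seed, the short stretch near the 5′ end that pairs with target messages, and so are expected to recognise largely the same targets, among them Lin28, Hmga2 and Ras family messages. The family is associated with differentiated cells, and the protein LIN28 blocks the maturation of its precursors. Liver is one of the adult tissues in which several members are abundant.

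The sequences are shown because the members are so alike that the arrays have to tell them apart by a few bases. All 7 matched a mature sequence of RefSeq (GRCm38.p6), each is 22 bases long, and capitals mark the seed, bases 2 to 8, of which there was 1 version.
let-7a: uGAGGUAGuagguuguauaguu
let-7b: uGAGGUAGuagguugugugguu
let-7c: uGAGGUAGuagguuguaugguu
let-7d: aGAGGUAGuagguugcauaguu
let-7f: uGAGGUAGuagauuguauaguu
let-7g: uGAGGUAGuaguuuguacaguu
let-7i: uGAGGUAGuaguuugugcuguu

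Positions count from 1 at the 5′ base, and the base of the member named first is written first. let-7a differed from let-7c only by A19G and from let-7f only by G12A, and let-7b differed from let-7c only by G17A. let-7i was nearest to let-7g, from which it differed by G17A and U19A. From let-7b it differed at 3 positions (U12G, C18U and U19G). From let-7a, let-7c and let-7f it differed at 4 positions, and from let-7d at 6. How much of one member's RNA bound to another member's probe was not tested, and members 1 base apart may share signal.

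The members come from 10 hairpin genes, in which those making let-7a, let-7c and let-7f are present more than once. By the RefSeq annotation, and within 10 kb, the hairpins let-7a-1, let-7f-1 and let-7d lie together on chromosome 13, and let-7b and let-7c-2 lie together in the noncoding transcript Lncppara on chromosome 15. let-7a-2 neighbours miR-100, let-7c-1 neighbours miR-99a, and let-7f-2 neighbours miR-98 within Huwe1 on chromosome X. Only 2 hairpins had no other miRNA in that window, let-7g within Wdr82 on chromosome 9 and let-7i on chromosome 10. The array annotation (mm9) placed the let-7i probe target on chromosome 10 from 122422754 to 122422774 and that of let-7g on chromosome 9 from 106081178 to 106081198. It gave 1 position per miRNA. The probes read the mature RNA, and the 2 loci that RefSeq lists for let-7c have the same mature sequence, as do the 2 for let-7f. The array therefore could not separate their hairpins. For let-7a, whose probes were also placed at 1 position, the hairpins were not separated either.

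Between 117 and 158 of the mouse miRNAs were called detected per array, and 133 were detected on at least 3 arrays and were tested. The CCL4 array at 4 weeks had both the most detected miRNAs and the lowest signal called detected, 0.139 against 5.59 to 8.16 on the other 7 arrays. miR-122, the hallmark miRNA of hepatocytes, had the highest signal on every array, and miR-124 and miR-9, known from the nervous system, were detected on none. All 7 members were detected on all 8 arrays, none of their 140 spots per array was saturated, and all were well above background.

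mmu-let-7f, the mouse let-7f, gave the highest signal of the members on every array. In background-subtracted fluorescence, with no scaling between arrays, it read 2242 on the CCL4 array at 4 weeks, 1661 and 2395 at 6 weeks, and 3459 and 2937 at 8 weeks. The olive oil arrays read 2085, 2029.6 and 2689 at 4, 6 and 8 weeks. The 2 treatments overlapped, and the 8-week arrays were the brightest of each treatment.

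mmu-let-7a, 1 base away from let-7f, was the next on every array. Its signal was 1710.5 with CCL4 at 4 weeks, 1492 and 2146 at 6 weeks, and 2969.8 and 2529.9 at 8 weeks. With olive oil it was 1816, 1791 and 2434. As for let-7f, the lowest value belonged to 1 of the CCL4 arrays at 6 weeks and the highest to 1 of those at 8 weeks.

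mmu-let-7g, mmu-let-7c and mmu-let-7b came next, with the place of let-7g changing between arrays. let-7g read 997, 890.3, 1292, 2002 and 1689.5 with CCL4 at 4, 6, 6, 8 and 8 weeks, and 1109, 1122 and 1450.1 with olive oil. let-7c read 964, 939, 1372, 1942 and 1592 with CCL4 and 1017, 1088 and 1490.5 with olive oil. let-7b read 842, 932, 1314, 1835 and 1533 with CCL4 and 1000.0, 1051 and 1459.7 with olive oil. let-7c was above let-7b on all 8 arrays. let-7g was above both on 5 arrays and below both on the other 3, so its place was not settled beyond the spread between arrays.

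mmu-let-7d was always the sixth. It read 636, 499, 743, 1054 and 885 with CCL4 and 576, 598 and 746 with olive oil. It is the only member that starts with a base other than u, and its signals overlapped between treatments.

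mmu-let-7i gave the lowest signal of the members on every array. It read 510.1 with CCL4 at 4 weeks, 281 and 435 at 6 weeks, and 702 and 567 at 8 weeks. With olive oil it read 283, 245 and 366. The signal was higher than that of its week's olive oil array on 5 of 5 CCL4 arrays, although the lower 6-week value lay within the olive oil range. let-7f and let-7d were higher than the olive oil array of their week on 4 of 5, and the remaining 4 members on 3 of 5.

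Among all 567 mouse miRNAs, let-7f ranked 6th or 7th, let-7a 8th or 9th, and let-7i between 27th and 33rd. This is an order of array signal. Probes differ in length, from 18 to 21 bases here, and in binding, so it is not an order of molecules.

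**Figure D1:**
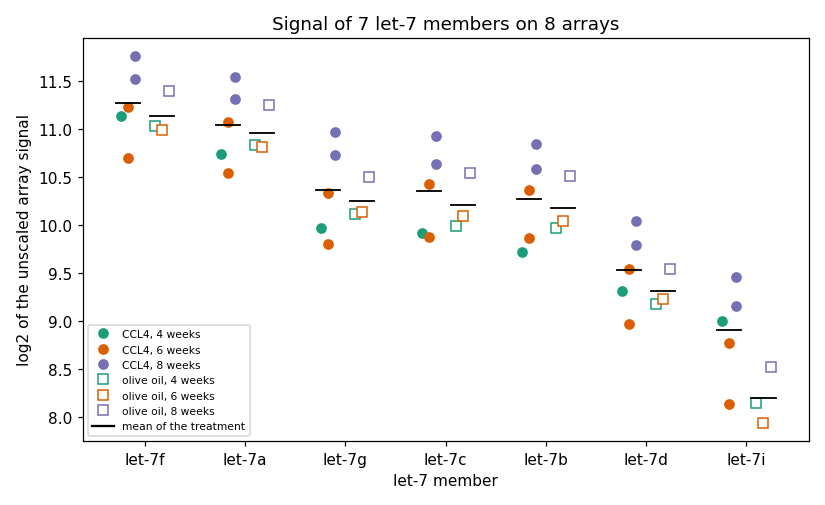
Log2 of the unscaled array signal (vertical axis) of each let-7 member (horizontal axis) on the 8 arrays. Filled circles are CCL4, open squares olive oil, colours the week, and lines the mean of each treatment. let-7i is the lowest member on every array, and its treatment means are the farthest apart.

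The 7 members together took a similar part of the liver's miRNA signal under both treatments. They made up 8.96% to 10.8% of the summed mouse miRNA signal after CCL4 and 9.34% to 10.9% after olive oil, and these ranges overlapped. Within the family the parts were divided differently. let-7i supplied 4.20% to 6.45% of the summed family signal with CCL4 and 3.09% to 3.59% with olive oil, with no overlap. let-7a supplied 21.3% to 22.3% with CCL4 and 22.6% to 23.0% with olive oil, also without overlap but in the other direction. The ranges of let-7b, let-7c, let-7d, let-7f and let-7g overlapped. These are parts of the same family total, so a higher let-7i share lowers the summed share of the other members. The lower let-7a share is therefore not independent of the higher let-7i share. Such shares were not computed for other miRNAs, so no background stands beside these results.

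The first comparison was between CCL4 and olive oil over all weeks, after each array had been divided by its own 75th percentile. The study's methods name a 75th percentile over the measurements of a species, without saying that it was taken per array. A single value for all arrays would leave the differences as with no scaling. On the scale taken per array 6 of 7 members were lower with CCL4 and let-7i was not called. Differences given with an SE are adjusted for week by the fit, so they are not exactly the gap between the 2 means. let-7b, at 7.18 ± 0.42 on the log2 scale (SD, n = 5) against 7.74 ± 0.11 (n = 3), fell by 0.64 (SE 0.173, limma adjusted p = 0.0206). let-7a, at 7.95 ± 0.29 against 8.53 ± 0.05, fell by 0.63 (SE 0.162, adjusted p = 0.0179). The direction depended on the scale: with no scaling let-7a and let-7b differed by 0.04 and 0.03, upward.

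let-7g, at 7.27 ± 0.36 against 7.82 ± 0.07, fell by 0.61 (SE 0.176, adjusted p = 0.0215). let-7c fell by 0.58 (SE 0.166) and let-7f by 0.56 (SE 0.156), both with an adjusted p of 0.0209. let-7d fell by 0.48 (SE 0.163, adjusted p = 0.0295). Without scaling these 4 were between 0.06 and 0.18 higher and none of them was called. For each of the 6, all 5 CCL4 arrays were below all 3 olive oil arrays on the scaled level, and on the unscaled signal all 6 overlapped. None of the 6 was called without the CCL4 array at 4 weeks, or without the olive oil array at 4 or at 6 weeks. Without either 4-week array the differences were -0.50 for let-7a to -0.39 for let-7d, and without the olive oil array at 6 weeks they were -0.71 for let-7b to -0.45 for let-7d.

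let-7i stood at 5.81 ± 0.24 with CCL4 and 5.77 ± 0.06 with olive oil on the scaled log2 level. The difference was 0.03 (SE 0.157, limma adjusted p = 0.857), and 3 of 5 CCL4 arrays were above the olive oil array of their week. Without scaling it was 0.70 higher with CCL4 (adjusted p = 0.0261), the only member called.

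The members' count has to be read against that of all tested miRNAs. On the scaled values 47 of 133, or 35.3%, were called lower with CCL4 and 18, or 13.5%, higher, 48.9% in all. All CCL4 arrays were below all olive oil arrays for 58 of 133, or 43.6%, and above them for 12, or 9.02%. The median difference over the 133 was -0.32, and that over the 7 members was -0.58. Without scaling, 34 miRNAs, or 25.6%, were called higher by the same limma fit and the median was 0.35. No member was then lower, with p adjusted or not.

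Relative to the median of all tested miRNAs, which any single factor per array leaves as it is, the 6 abundant members were between 0.16 and 0.32 below and let-7i was 0.36 above. Scalings that act on the whole distribution moved the 6 closer to the median or past it. Quantile normalization put them between -0.06 and 0.15 from it, with let-7c, let-7f and let-7g above. Cyclic loess put them between -0.10 and 0.02, with let-7d and let-7f above. let-7i was 0.32 and 0.44 above it under these settings. Ranked from the highest difference among the 133, let-7i was 36th and the others ran from 90th for let-7d to 121st for let-7b. The scale itself moved with treatment. The 75th percentile was 6.53 to 11.0 after CCL4 and 4.71 to 6.48 after olive oil. It lay below the array's lowest signal called detected on every olive oil array and above it on every CCL4 array. Its part in the members' difference was tested only by the other scalings.

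**Figure D2:**
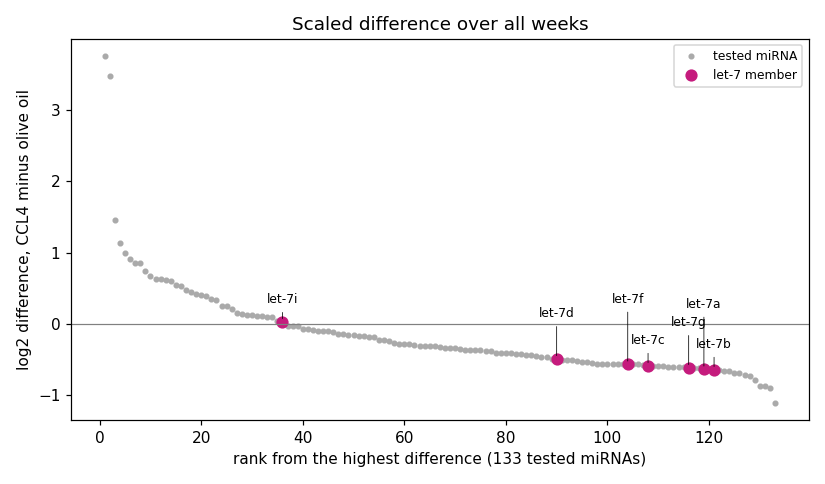
Log2 difference between CCL4 and olive oil over all weeks on the scaled level (vertical axis) for the 133 tested miRNAs, ranked from the highest (horizontal axis). let-7i lies at 0.03 and rank 36, and the other 6 members lie between -0.48 and -0.64. With no scaling the 6 lie slightly above 0.

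The difference of let-7i was above that of each of the other 6 members under all 8 settings, no scaling included. A single factor per array leaves the gap between members as it is, so only settings acting on the whole distribution could change it. The gap was 0.52 to 0.67 under a single factor. It was 0.17 to 0.39 with quantile normalization, 0.42 to 0.54 with cyclic loess and 0.33 to 0.39 with normexp and quantile normalization. With quantile normalization let-7i was 0.26 higher with CCL4 (limma adjusted p = 0.0218), and with cyclic loess 0.41 higher (adjusted p = 0.00776). With normexp background correction and quantile normalization it was 0.25 higher (adjusted p = 0.0107). Of all 133 tested miRNAs, 12, 23 and 12 were called higher under these 3 settings, in the order given. None of the other 6 members was called under them, with values from -0.14 to 0.08, and let-7f changed sign under quantile normalization. With the 75th percentile of the 113 miRNAs detected on all arrays, let-7i was 0.23 higher (adjusted p = 0.122) and the other 6 were between 0.28 and 0.44 lower, none of them called.

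**Figure D3:**
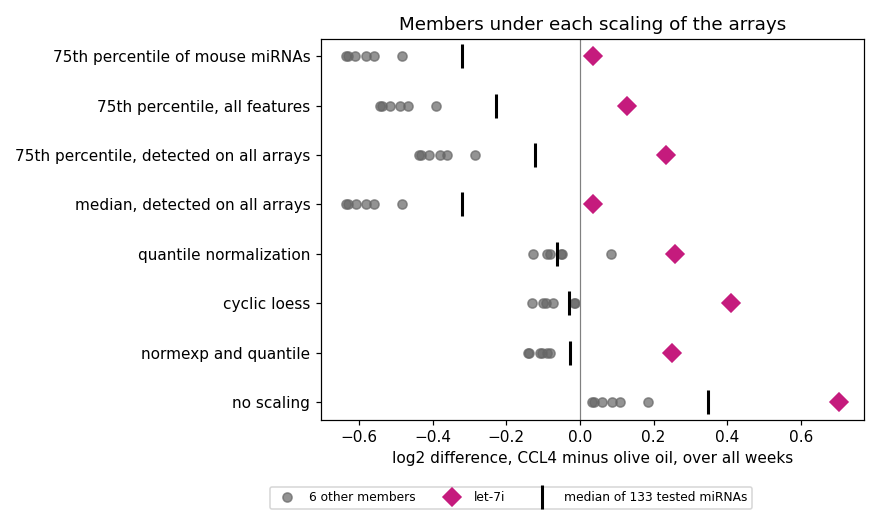
Log2 difference between CCL4 and olive oil over all weeks (horizontal axis) for let-7i (diamonds) and the other 6 members (circles) under each scaling of the arrays (rows). Black bars are the median of all tested miRNAs. The circles cross 0 between scalings, from -0.64 to 0.18, while let-7i lies to the right of the circles and of the bar in every row. Rows with a single factor per array, or with no scaling, hold the same distances by construction.

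At 4 weeks the scaled difference was largest for let-7b and smallest for let-7i. With 1 array against 1, and the spread estimated only where CCL4 had 2 arrays, at 6 and 8 weeks, let-7b was 1.14 lower (limma adjusted p = 0.00335), let-7g 1.05 lower (0.00672) and let-7a 0.98 lower (0.0110). let-7c and let-7f were also called, at -0.97 and -0.79, and let-7d was at -0.75 (adjusted p = 0.0501). let-7i was at -0.04. The fit gave all 7 members the same SE at 4 weeks, 0.328. These p-values thus rest on 1 spread shared over the tested miRNAs, not on each member's own. The count was 5 of 7 members, against 33.1% of all tested miRNAs called lower at 4 weeks and 12% higher. Without scaling the 6 ranged from -0.25 to 0.14, and let-7i was at 0.85.

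At 6 and 8 weeks no member was called on the scaled level, whereas with arrays scaled to the median of the miRNAs detected on all of them 6 members were called lower in each of these weeks. The 6 abundant members were between -0.64 and -0.50 at 6 weeks and between -0.42 and -0.22 at 8 weeks, and let-7i was at -0.07 and 0.19. With p not adjusted, 3 members were under 0.05 at 6 weeks and 0 at 8 weeks. Of all tested miRNAs 3.01% were called lower at 6 weeks and 0.752% at 8 weeks, and 6.02% higher in each. The unscaled signal of let-7i was 1.80, 1.43 and 1.72 times that with olive oil at 4, 6 and 8 weeks, and the other 6 members lay between 0.842 and 1.30 times.

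Whether the difference changed with the week was tested by the interaction of treatment and week. No member passed by limma, with adjusted p from 0.623 to 0.907 and none under 0.05 before adjustment, while 6.02% of the tested miRNAs did. With 1 olive oil array per week the model had 2 residual degrees of freedom, so a change with time could have been missed.

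**Figure D4:**
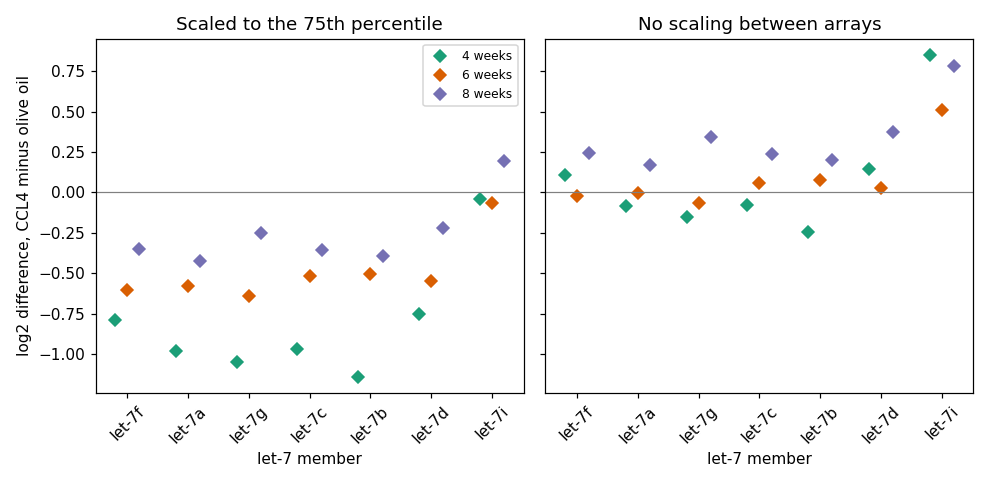
Log2 difference between CCL4 and olive oil at 4, 6 and 8 weeks (colours) for each member (horizontal axis), scaled to the 75th percentile on the left and unscaled on the right. The 6 abundant members lie between -1.14 and -0.22 when scaled and between -0.25 and 0.37 when not, and let-7i lies above them in each week on both scales.

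The signal of let-7i relative to another member of the same array does not depend on how arrays are scaled by a single factor. It was higher with CCL4 against each of the other 6. The let-7i signal was 29.8% of that of let-7a on the CCL4 array at 4 weeks, 18.8% and 20.3% at 6 weeks, and 23.6% and 22.4% at 8 weeks. On the olive oil arrays it was 15.6%, 13.7% and 15.0%. All 5 CCL4 arrays were above all 3 olive oil arrays.

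Against let-7f, the brightest member, the let-7i signal was 22.7%, 16.9%, 18.2%, 20.3% and 19.3% with CCL4 and 13.6%, 12.1% and 13.6% with olive oil. Against let-7g, the member closest to it in sequence, it was 51.2%, 31.6%, 33.7%, 35.0% and 33.6% with CCL4 and 25.5%, 21.9% and 25.2% with olive oil. Neither set overlapped. The CCL4 array at 4 weeks was the highest for let-7a, let-7f and let-7g alike.

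Against let-7b the let-7i signal ran from 30.2% to 60.6% with CCL4 and from 23.3% to 28.3% with olive oil. Against let-7c it ran from 29.9% to 52.9% and from 22.5% to 27.8%. Against let-7d, the least bright of the 6, it ran from 56.3% to 80.2% and from 41.0% to 49.1%. These were also without overlap, and the olive oil array at 6 weeks was the lowest of all 8 in each of the 6 ratios.

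On the log2 scale the ratio to let-7a was -2.14 ± 0.25 with CCL4 (SD, n = 5) and -2.76 ± 0.10 with olive oil (SD, n = 3), a difference of 0.62 or 1.54-fold. The difference was 0.60 against let-7b, 0.59 against let-7g, 0.57 against let-7f, 0.55 against let-7c and 0.48 against let-7d, the last being 1.40-fold. With normexp background correction and quantile normalization, which is not a single factor per array, they were smaller, at 0.36 for let-7a, 0.34 for let-7b, 0.33 for let-7g, 0.32 for let-7f, 0.29 for let-7c and 0.33 for let-7d. Each of the 6 reached p = 0.0357 by a two-sided exact permutation test (56 ways of dividing the arrays 5 to 3), which is the smallest p these arrays can give. The 6 ratios share the let-7i signal and are not 6 independent results, and let-7i was set against the rest with earlier results of these data known.

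In a limma fit with week as a factor on the ratios of let-7i to all 132 other tested miRNAs, the 6 differences were 0.52 to 0.67 and adjusted p ran from 0.00265 for let-7f to 0.00535 for let-7b. Of these 132 ratios 70, or 53%, were called higher with CCL4 and 17, or 12.9%, lower. In 56, or 42.4%, all CCL4 arrays were above all olive oil arrays. A let-7i ratio higher with CCL4 was thus common among the tested miRNAs.

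The difference was present in each week and largest at 4 weeks for all 6. Against let-7c it was 0.93, 0.45 and 0.55 at 4, 6 and 8 weeks, and against let-7g 1.00, 0.58 and 0.44. Against let-7f it varied least, at 0.75, 0.54 and 0.54. When labels were permuted only within weeks there were 18 splits, and each ratio reached the smallest possible exact p of 0.111. Without the CCL4 array at 4 weeks the 6 differences were between 0.41 and 0.52.

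**Figure D5:**
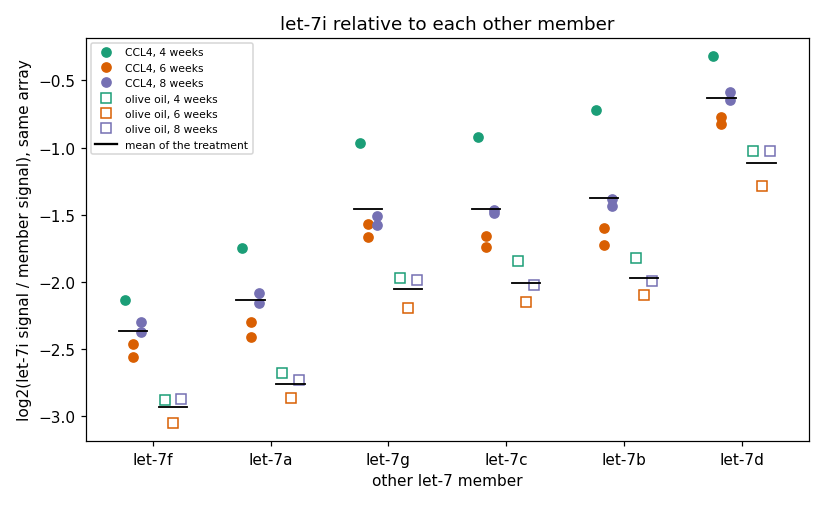
Log2 ratio of the let-7i signal to that of each other member on the same array (vertical axis), by member (horizontal axis). Filled circles are CCL4, open squares olive oil, colours the week, and lines the mean of each treatment. In each of the 6 columns all 5 circles lie above all 3 squares, and the highest circle is the 4-week array.

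The other 6 members kept closer proportions to one another. Of their 15 pairs, 1 was without overlap between treatments, let-7a to let-7d, with a log2 difference of -0.14. The remaining 14 overlapped, and the mean differences of the 15 were between 0.01 and 0.14 in size. The largest difference of a single week was 0.39 at 4 weeks, where let-7b was lower relative to let-7d. No test was run on these pairs. Pairs among the other tested miRNAs were not counted, so no background share stands beside the 1 of 15.

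Each member was read by 2 probes of 10 spots each, and the probes of a member moved alike. The scaled difference of let-7i was 0.01 by its longer and 0.08 by its shorter probe. That of let-7c, the widest gap, was -0.60 and -0.51, and that of let-7a, the narrowest, was -0.63 and -0.62. The brighter probe gave 2.31 to 5.45 times the signal of the other. When each let-7i probe was set against each probe of the other 6, the 24 differences of log2 ratio were 0.46 to 0.67, and 22 reached the smallest exact p. The exceptions were the longer let-7i probe against the shorter probes of let-7b (0.55) and let-7c (0.47), both with an exact permutation p of 0.0714.

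let-7e and miR-98, outside the group, carry the same seed. let-7e, made with miR-99b and miR-125a from another cluster, read 172, 81, 129, 213 and 151 with CCL4 and 59, 50.2 and 69 with olive oil. It rose by 0.63 on the scaled log2 level (SE 0.164, limma adjusted p = 0.0183) and was among those the study singled out in these samples. The ratio of let-7i to let-7e was 0.57 lower with CCL4 on the log2 scale (exact permutation p = 0.0357, the smallest possible). miR-98 was at -0.34 on the scaled level (limma adjusted p = 0.0800), between let-7i and the other 6, and the ratio of let-7i to it was 0.37 higher with CCL4.

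A list of 6 miRNAs known from clusters with let-7 hairpins, not limited to the 10 kb window above, held 2 that rose and none that fell on the scaled level, with a median of -0.17. The risers were miR-99b at 0.63 (limma adjusted p = 0.0183) and miR-125a-5p at 0.86 (adjusted p = 0.00532), both from the cluster of let-7e. miR-99a and miR-100, next to let-7c-1 and let-7a-2, were at -0.36 and -0.28, and miR-125b-5p was at -0.07, none of them called. Over all tested miRNAs 13.5% were called higher and 35.3% lower.

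The opposite strands of the hairpins, marked with a star, were at the detection limit. Of 7 such strands on the array, let-7b* was detected on 1 array, the olive oil array at 8 weeks, and let-7f* on 1, a CCL4 array at 8 weeks. let-7c-1*, let-7c-2*, let-7d*, let-7g* and let-7i* were detected on none, and the signals of all 7 ran from -3.38 to 11.3. No treatment difference of a star strand could be measured.

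Marker miRNAs of several cell types moved with treatment beside these results. Of all tested miRNAs, 35.3% were called lower and 13.5% higher on the scaled level. All 3 hepatocyte markers (miR-122, miR-192 and miR-194) fell, with a median of -0.66, and their summed scaled level was 2328 to 4120 with CCL4 and 5260 to 5882 with olive oil. On the unscaled signal the hepatocyte sums overlapped, as those of the 6 abundant let-7 members did. Of 5 tested mesenchymal markers 4 rose, with a median of 0.74 and summed scaled levels of 30.6 to 50.3 against 22.4 to 29.4. Some of these, the miR-199 forms, had been picked by the study on these samples, and a sixth, miR-145, was detected on no array.

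Of 5 tested leukocyte markers 1 fell and none rose, and the sums overlapped at 55.5 to 156 with CCL4 and 79.7 to 117 with olive oil. miR-150, a lymphocyte miRNA, was detected on no array. No endothelial or erythroid marker was called. The endothelial sums did not overlap on the scaled level, at 136 to 205 against 213 to 225, and did overlap unscaled, at 888 to 2034 against 1060.1 to 1422. The part of cell composition in the let-7 values was not tested.

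The patterns over the 8 arrays, each miRNA centred on its own mean, put let-7i away from its family. The tested miRNA nearest to it was miR-350, with a mean absolute difference of 0.05 on the log2 scale, and then miR-10a at 0.09 and miR-362-3p at 0.10. The nearest member, let-7d, was the 52nd, at 0.23. let-7b and let-7c, of which 1 hairpin each lies in Lncppara, were nearest to each other at 0.04. They also differ by only 1 base, and signal shared between their probes was not tested. The nearest to let-7a was miR-148a, to let-7d miR-148b, to let-7f miR-139-5p and to let-7g miR-194, at 0.03 to 0.05.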

How the data were processed

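Intensity values came from the scanner files that the authors deposited, made per the file headers by Agilent Feature Extraction 10.5.1.1 with annotation on mm9; the study's methods name another version. The total gene signal sums the background-subtracted spots of a miRNA. The deposited log2 table of the series held the log2 of this signal without scaling, with signals below 1 set to 1. The values were then equal within 1.21e-06 over 599 features. All 8 arrays shared 1 slide and 1 scan, so neither differed between treatments.

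Each array's signals were scaled to its own 75th percentile over the 567 mouse miRNAs, then given a floor of 0.01 and log2 transformed. The study's methods set the floor before the division. That order left the members' differences and calls unchanged (let-7a adjusted p = 0.0221). The 133 miRNAs detected on at least 3 arrays were fitted with limma 3.58.1 (R 4.3.3) with week as a factor, by week with a mean per group, and for the interaction. Benjamini-Hochberg adjustment ran over all tested miRNAs, with a threshold of 0.05. Groups with 1 array were assumed to vary like the CCL4 pairs, and within a week the fit gave all members the same SE. Ratios within an array were tested by exact permutation (Python 3.11.15, scipy 1.17.1). The fit was tested on simulated data. Depth has no counterpart here, and the number of arrays limits the precision.

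Named miRNAs were the 7 members, the detected miRNAs of the related lists, the nearest pattern of each member (3 for let-7i), and markers set beside a result. Members, lists and the contrast of let-7i were chosen with earlier results of these data known. The alternatives were other scalings, floors, summaries, filters and models, the methods' t-test, and leaving out each array.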

Additional observations from a re-analysis of the deposited data

Results flagged for a closer look

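The log2 ratio of let-7i to let-7g over the 5 CCL4 arrays had 1 array far from the others. The 4-week array stood at a let-7i signal of 51.2% of let-7g, and the other 4 lay between 31.6% and 35.0%. The gap was 0.783 of the whole range, above the limit of 0.71 for 5 values. It was 1 of 13 such values examined, and chance marks about 1 in 20. The 4-week group holds 1 CCL4 array, so the week and the array cannot be told apart.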

How the results depend on the processing

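The higher let-7i ratio to the other 6 members kept its direction in all 102 values recomputed, from 0.29 (let-7c, normexp) to 0.71. Many of these could not have reversed. The sum of processed spot signals and the processed table returned the main values. Since the treatments did not overlap, leaving out an array could not change the direction. Permuted within weeks, the differences were 0.69, 0.71, 0.64, 0.53, 0.61 and 0.67 for let-7a, b, c, d, f and g, with p = 0.111 by exact permutation. By single probes the exceptions were 0.55 (let-7b) and 0.47 (let-7c). Leaving out each array gave 0.52 to 0.69, 0.44 to 0.69, 0.42 to 0.63, 0.40 to 0.53, 0.51 to 0.62 and 0.47 to 0.64, where the smallest possible p is above the threshold.

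The 6 members called lower became 0 with the 75th percentile of miRNAs detected on all arrays, quantile normalization, cyclic loess, normexp, no scaling, the processed table, no detection filter or the methods' t-test with Bonferroni, and 2 without the week term or with the methods' t-test after Benjamini-Hochberg. Leaving out an array gave 0 to 6, with 0 without the CCL4 array at 4 weeks or the olive oil array at 4 or 6 weeks. let-7i was the 1 member called higher with quantile normalization, cyclic loess, normexp, no scaling and the processed table, and leaving out an array gave 0 to 0. Differences reversed without scaling and in the processed table for let-7a (0.038), b (0.032), c (0.088), d (0.18), f (0.11) and g (0.059), and for let-7f with quantile normalization (0.085). let-7i reversed to -0.019 without the second CCL4 array at 6 weeks and -0.056 without the olive oil array at 8 weeks.

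Of all tested miRNAs, 47 lower became 10, 18, 19 and 11 with the detected-on-all percentile, quantile, loess and normexp, 0 without scaling, in the table or without a filter, 16 without week, and 23 and 1 with the t-test after Benjamini-Hochberg and Bonferroni. The 18 higher became 34 without scaling, 45 in the table, 5 without a filter, 11 without week, 10 and 0 with the t-tests. With quantile normalization, loess and normexp 12, 23 and 12 were higher, and median scaling gave 69 lower and 20 higher. Leaving out an array gave 5 to 60 lower and 8 to 14 higher. It gave 5 and 8 without the olive oil array at 6 weeks, 7 lower without either 4-week array, 30 lower without the first CCL4 array at 6 weeks, and 11 higher without the olive oil array at 8 weeks.

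By week, median scaling called 6 members lower at 6 and at 8 weeks. At 4 weeks 5 lower became 2 with quantile normalization, 0 without scaling, 1 with loess and 1 with the percentile of all features. Members called higher were 2 at 4, 1 at 6 and 1 at 8 weeks with quantile normalization and 1 at 4 weeks with loess. The interaction called 2 with quantile normalization and 0 to 0 when an array was left out. Counts not named here stayed within 1.5 times of those reported. The cause of these changes was not tested.

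With the replicate number as a block, 6 members stayed lower, let-7i was at -0.048, and 54 tested miRNAs were lower and 12 higher. Olive oil has no second replicate, so the numbers pair no treated with a control array, and deviations of equal numbers at 6 and 8 weeks correlated at 0.05 over 133 miRNAs.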
